A study of Homo sapiens with 6 samples.

Results

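Neural crest cells form at the border of the neural plate, leave the dorsal neural tube and become peripheral neurons, glia, pigment cells and parts of the face. WNT signalling is one of the cues that induce them. The 6 genes described here encode transcription factors of the neural crest program: TFAP2A and TFAP2B, AP-2 factors active from the neural plate border onward, FOXD3, SOX9 and SOX10, which specify crest cells, and SNAI2, a repressor tied to their epithelial to mesenchymal transition. SOX9 is also expressed in neural progenitors and glia, so it is no marker of crest alone. H3K4me3 marks active and poised promoters, and H3K27me3 is laid down by Polycomb repressive complexes. Regions with both are called bivalent and are common at developmental genes.

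Each gene stood for 1 window of build hg19, given by its position. The windows were TFAP2A on chromosome 6 from 10387 to 10430 kb, TFAP2B on chromosome 6 from 50776 to 50826 kb and FOXD3 on chromosome 1 from 63779 to 63801 kb. The other 3 were SOX9 on chromosome 17 from 70107 to 70133 kb, SOX10 on chromosome 22 from 38363 to 38391 kb, and SNAI2 on chromosome 8 from 49820 to 49844 kb. Of the 142800 peaks in the 4 lists, 118 overlapped a window. Positions are counted from 1. No hg19 gene annotation was used here, so peaks are given by position, without exon or intron, and a peak may belong to another gene within the window.

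The cells were neural progenitors at day 11 of a protocol toward midbrain dopamine neurons, all grown from 1 established line of human embryonic stem cells, H9. Every culture began with the Rock inhibitor Y-27632, the ventralising factor SHH, LDN and SB431542, which inhibit BMP and TGF-beta receptors, and CHIR99021 at 0.7 µM, which inhibits the kinase GSK3 and so activates WNT signalling. SHH, LDN and SB431542 were withdrawn on day 7. In Boost-Chir, CHIR99021 was at 7.5 µM from day 4 to day 10. The labels do not state which concentration Low-Chir received over those days. From day 10 all cultures had 3 µM with BDNF, GDNF, TGFβ3, ascorbic acid and dibutyryl cAMP. How many cultures went into a library is not stated. ChIP-seq for each mark was done on 1 library per condition, so no difference below has a replicate check and no p-value was computed. RNA was not analysed here, and the labelled cell type was not checked against other marker genes. In a bulk culture, a mark on fewer cells and less of it per cell cannot be told apart.

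Promoter sequences of the members in the RefSeq table show how CpG content varies among them, since H3K4me3 and Polycomb marks are both frequent at CpG-rich promoters. Of the 6 genes, entries of TFAP2A, TFAP2B and FOXD3 were used, and these are also the 3 with wide H3K27me3 domains. Entries on the chromosome of SNAI2 were left out, so whether SNAI2 has one is not known here. Nothing is read from the match with wide domains. The 250 bases before each RefSeq start are printed 5′ to 3′ with every CpG in capitals. They follow build GRCh38.p14 and were not placed on the hg19 peaks.
TFAP2A upstream start, minus strand, chr6:10419660-10419909: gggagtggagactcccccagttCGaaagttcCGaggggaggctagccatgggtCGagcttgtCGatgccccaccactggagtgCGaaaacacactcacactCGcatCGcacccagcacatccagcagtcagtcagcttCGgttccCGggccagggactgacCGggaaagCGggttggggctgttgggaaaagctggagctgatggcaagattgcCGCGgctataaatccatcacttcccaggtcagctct
TFAP2A internal start, minus strand, chr6:10412392-10412641: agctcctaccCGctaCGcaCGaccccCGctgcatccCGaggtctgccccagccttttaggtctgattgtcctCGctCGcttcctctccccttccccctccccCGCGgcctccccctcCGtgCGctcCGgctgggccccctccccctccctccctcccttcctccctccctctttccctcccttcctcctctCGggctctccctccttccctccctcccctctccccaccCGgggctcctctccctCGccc
TFAP2B, plus strand, chr6:50818621-50818870: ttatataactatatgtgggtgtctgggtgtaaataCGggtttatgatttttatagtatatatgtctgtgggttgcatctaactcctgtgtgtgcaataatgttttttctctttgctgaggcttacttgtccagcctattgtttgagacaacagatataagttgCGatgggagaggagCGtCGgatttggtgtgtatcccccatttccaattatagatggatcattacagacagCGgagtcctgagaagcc
FOXD3, plus strand, chr1:63322317-63322566: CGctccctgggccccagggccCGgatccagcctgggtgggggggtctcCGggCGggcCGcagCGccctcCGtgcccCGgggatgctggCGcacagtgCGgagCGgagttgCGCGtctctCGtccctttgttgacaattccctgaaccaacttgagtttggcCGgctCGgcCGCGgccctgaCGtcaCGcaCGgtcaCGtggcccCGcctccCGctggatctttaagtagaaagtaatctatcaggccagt

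FOXD3 had the most CpG among these sequences, 24, a number reached by 23.7% of the 35116 promoters in the table. The TFAP2A starts held 13 and 15, and TFAP2B held 5, below the median of 11 over the table. TFAP2B, whose H3K27me3 length was close to that of TFAP2A, thus had the fewest. The TCF/LEF motif, bound by the effectors of WNT signalling, was searched on both strands with CTTTGAA as the first spelling, CTTTGAT as the second, CTTTGTA as the third and CTTTGTT as the fourth. The fourth matched 1 time in FOXD3, none matched in the other sequences, and 12% of all promoters held a match. That spelling overlaps the core motif of SOX factors. Neither the AP-2 motif GCCNNNGGC (19.8% of all promoters) nor the Snail E-box CAGGTG (17.5%) was present in these 4 sequences. A match is a match of letters, not a bound site.

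TFAP2A, TFAP2B and FOXD3 lay in long H3K27me3 domains with small H3K4me3 peaks, SOX9 had H3K4me3 that was partly under H3K27me3, SNAI2 had H3K4me3 with little or no H3K27me3, and SOX10 had short H3K27me3 without H3K4me3. The length under H3K27me3 peaks in Low-Chir was 41.97 kb at TFAP2A, 39.4 kb at TFAP2B, 18.0 kb at FOXD3, 4.75 kb at SOX9, 2.40 kb at SOX10 and 0.604 kb at SNAI2. In Boost-Chir the order was the same, with 41.7, 38.8, 18.1, 5.67, 1.39 and 0 kb. As a share of the window, H3K27me3 covered 97.6% at TFAP2A, 78.9% at TFAP2B and 82.0% at FOXD3 in Low-Chir, but 18.3% at SOX9, 8.59% at SOX10 and 2.52% at SNAI2. Without replicates, neighbours in this order cannot be separated by a spread.

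**Figure D1:**
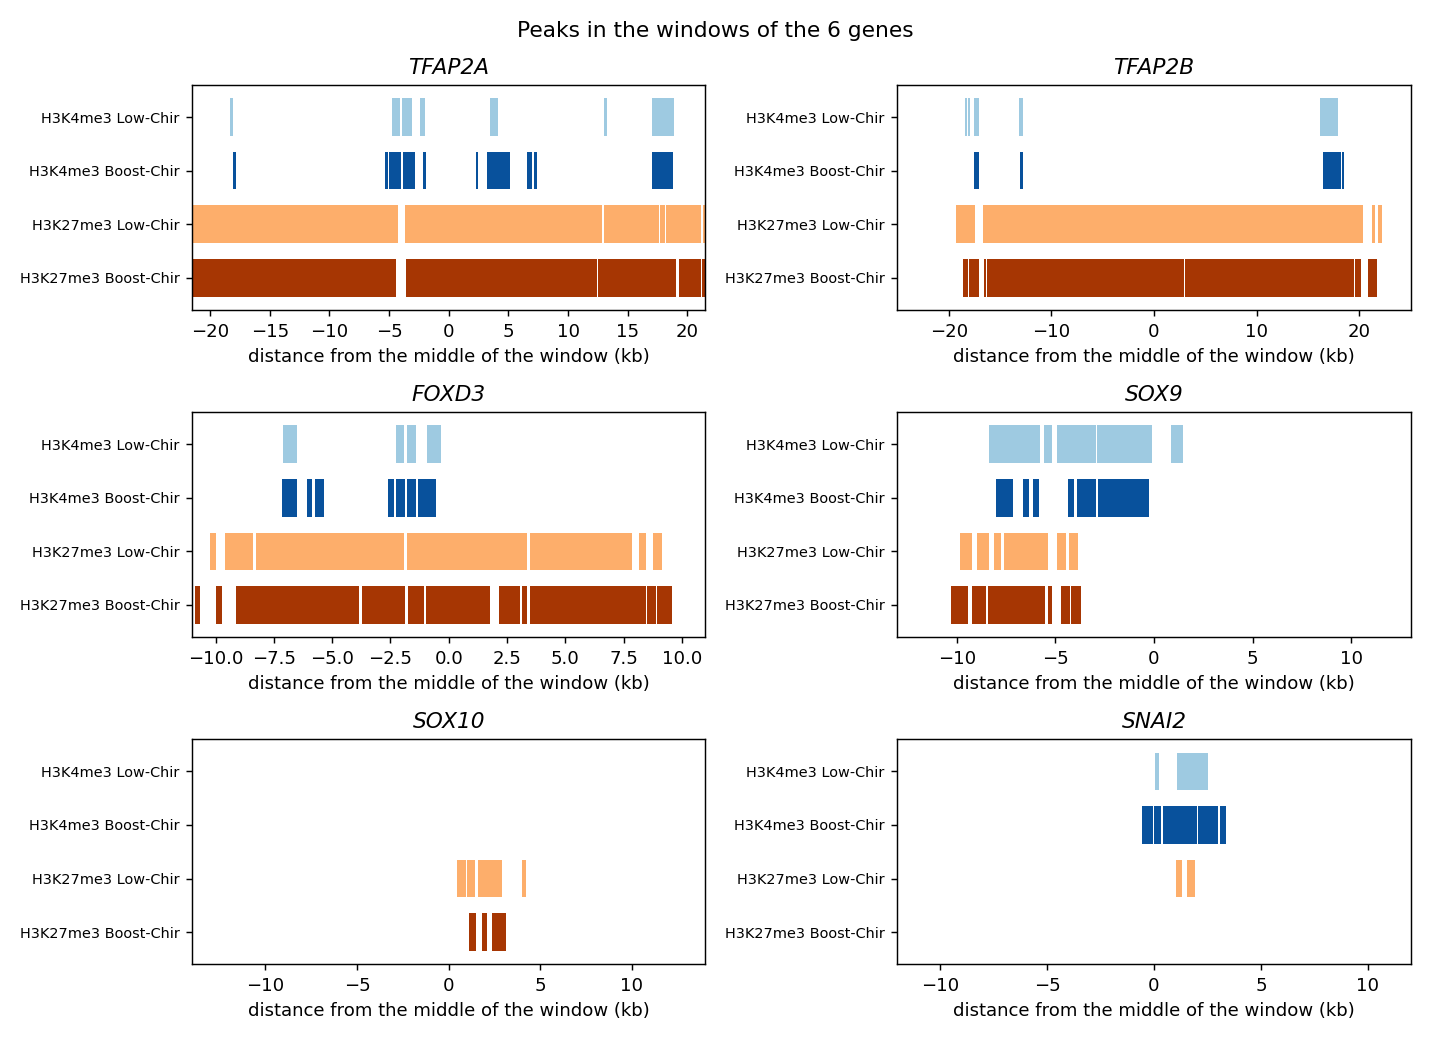
Peaks of the 4 lists in the 6 windows, one row per mark and condition, against the distance from the middle of the window in kb. H3K27me3 fills most of the TFAP2A, TFAP2B and FOXD3 windows and overlaps the left part of the H3K4me3 run at SOX9. It has no listed peak at SNAI2 in Boost-Chir, while SOX10 has no H3K4me3 peak.

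H3K4me3 covered at least 1.5-fold and 1 kb more of the window in Boost-Chir at TFAP2A, FOXD3 and SNAI2, and less by the same limits at SOX9. TFAP2B, with 3058 and 2684 bp, stayed inside the limits, and SOX10 had no peak. The same limits were applied to windows of 27 kb around all 16580 H3K4me3 loci, made of peaks of both conditions joined within 3 kb. Of these, 18.5% were longer and 1.21% shorter in Boost-Chir. By any amount 81.7% were longer. The median ratio over windows with peaks in both lists was 1.28, beside a depth in Boost-Chir of 1.21 times that in Low-Chir. With the same minimum of summit reads per depth in both lists, 14.3% of all windows were longer, and the ratio was 1.67 at TFAP2A, 1.79 at FOXD3 and 2.26 at SNAI2. The windows of TFAP2A (ratio 1.52) and FOXD3 (1.54) lay just past the 1.5-fold limit and near the upper quartile of these windows, 1.53. SNAI2 (2.14) was under the 95th percentile, 2.21, and SOX9 (0.629) below the 5th, 0.732. The windows of the genes were 22 to 50 kb long and not centred on a locus. Their places among the windows of 27 kb are thus approximate, for either mark.

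**Figure D2:**
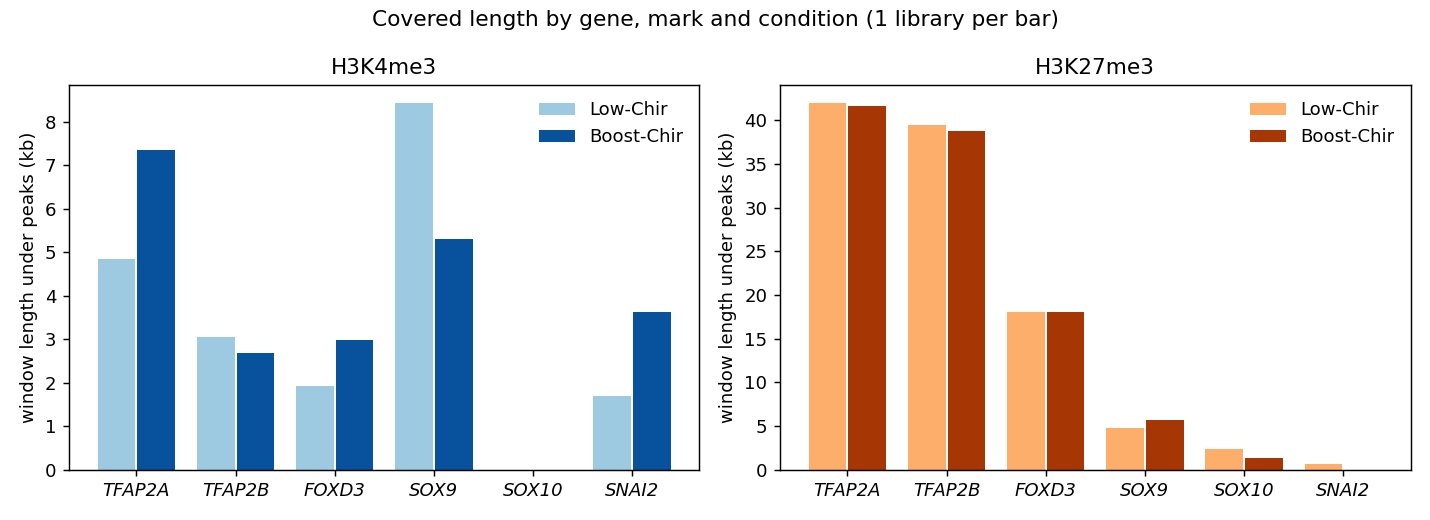
Length of each window under H3K4me3 peaks (left) and H3K27me3 peaks (right) in kb, with 1 library per bar and no error bar. H3K4me3 is longer in Boost-Chir at TFAP2A, FOXD3 and SNAI2 and shorter at SOX9, whereas the H3K27me3 bars of TFAP2A, TFAP2B and FOXD3 are nearly equal.

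By H3K27me3 length, 0 of the 6 windows were longer in Boost-Chir by these limits and 1, SOX10, was shorter. At TFAP2A, TFAP2B and FOXD3 the first outcome was fixed, since length was clipped to the window. A 1.5-fold gain would not fit into their windows of 43, 50 and 22 kb. Around all 7868 H3K27me3 loci, 8.49% of windows were longer and 14.4% shorter, so 1 of 6 is near the background. At TFAP2A, TFAP2B and FOXD3 the ratios of Boost-Chir to Low-Chir were 0.993, 0.984 and 1.004. With windows 10 kb wider on each side they were 0.983, 0.984 and 1.004. Among all windows with H3K27me3 in both lists the ratio ran from 0.643 to 1.22 between the quartiles, with a median of 0.913. Windows were not compared at equal H3K27me3 length or at an equal share of the window, so nothing is read from ratios near 1. The highest H3K27me3 fold enrichment over local background listed by the authors was 10.97 in Low-Chir versus 9.22 in Boost-Chir at TFAP2A. It was 6.42 versus 9.78 at TFAP2B, 9.11 versus 9.62 at FOXD3, and 4.92 at SNAI2 in Low-Chir. The TFAP2B folds belong to unlike peaks, a short one of 1830 bp for Low-Chir versus one of 13661 bp for Boost-Chir. The widest Low-Chir peak there, of 36665 bp, held 52 reads at its summit, against 26 in the short peak. Its fold was 5.36, over a local background of 8.80 reads, 2.82 times the genome-wide value. The highest TFAP2B summits, as reads above local background per unit of depth, were 13.8 (Low-Chir) versus 14.1 (Boost-Chir), a ratio of 1.02.

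**Figure D3:**
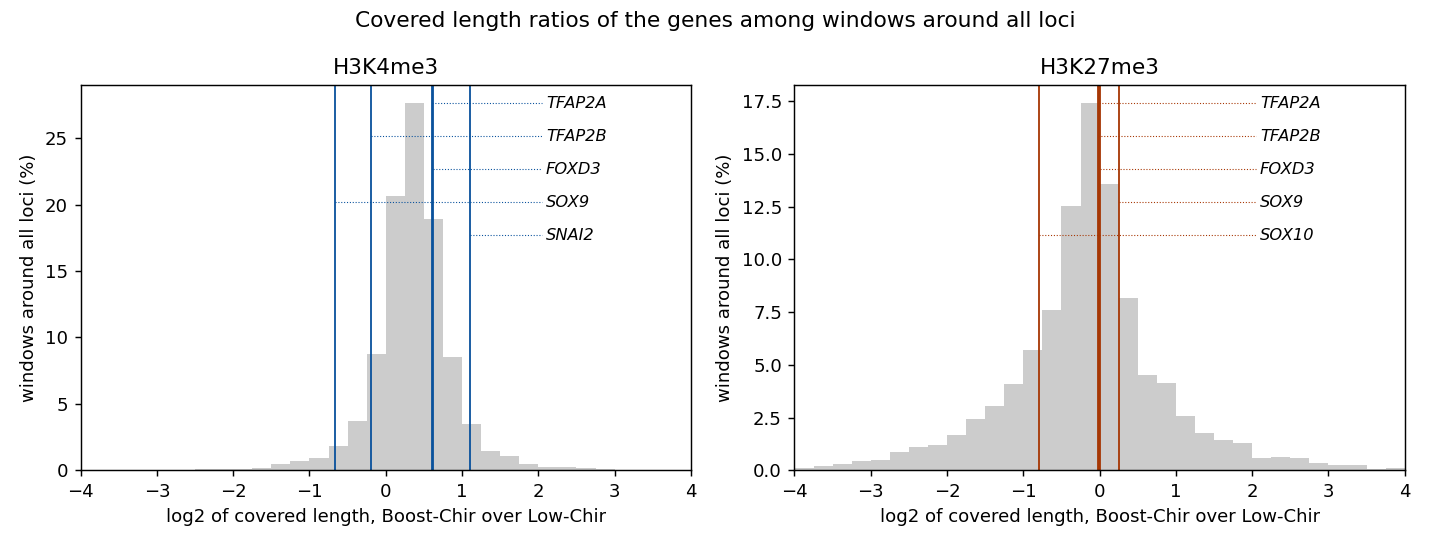
Log2 ratio of covered length, Boost-Chir over Low-Chir, for windows around all loci with peaks in both lists (grey, percent of windows), with the genes as vertical lines. For H3K4me3 the bulk lies above 0, TFAP2A and FOXD3 fall together on its right shoulder, and SOX9 lies to the left; for H3K27me3 TFAP2A, TFAP2B and FOXD3 sit at about 0.

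TFAP2A lay in one of the longer H3K27me3 domains of each list. Peaks within 3 kb of each other joined to a run of 51.9 kb in Low-Chir, from 10379609 to 10431530, and of 49.1 kb in Boost-Chir. In covered length these runs ranked 25 of 6350 and 19 of 6620, each within its own list. H3K4me3 appeared in it as small peaks. In Low-Chir 7 peaks covered 4842 bp, and the highest fold enrichment over local background listed by the authors was 6.07, with its summit at 10426998. In Boost-Chir 10 peaks covered 7345 bp, with a top fold of 6.81 at 10413015. The added length lay mainly in the middle of the window: a Low-Chir peak of 662 bp from 10411969 stood against one of 1911 bp from 10411718 in Boost-Chir, followed by peaks of 481 and 249 bp without a Low-Chir counterpart. The peak near the right end of the window hardly differed in width, with 1820 and 1752 bp. H3K27me3 had its longest gap in the window within the H3K4me3 run that began at 10403774 in Low-Chir versus at 10403172 in Boost-Chir. The gap was 541 bp from 10404266 in the former and 856 bp from 10404053 in the latter. H3K4me3 peaks filled 383 and 690 bp of these gaps.

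TFAP2B, the paralog of TFAP2A, lay in a wide domain too, without a called difference in H3K4me3 length. Its joined H3K27me3 run spanned 41.4 kb in Low-Chir versus 40.3 kb in Boost-Chir, ranks 38 and 34 of the lists. A single Low-Chir peak of 36665 bp took up most of it, whereas Boost-Chir had peaks of 13661, 5505 and 16493 bp separated by short gaps. Peak number, 5 against 8, thus says little here. H3K4me3 covered 3058 bp in 5 peaks and 2684 bp in 4. The main peak was 1802 bp wide in both lists, from 50817159 in Low-Chir versus from 50817444 in Boost-Chir, and lay near the right end of the window, far from the small peaks on the left. Its listed fold was 9.42 in Low-Chir versus 5.86 in Boost-Chir. The numbers printed above for the TFAP2B promoter fall within the range of this peak. They follow another build with other numbering, so they place no start site here. The ratio of covered length turned from 0.878 to 1.25 when the top 50% of each list by −log10 q was kept, so no direction is given for it.

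FOXD3 was covered by a joined H3K27me3 run of 19.4 kb in Low-Chir versus 20.4 kb in Boost-Chir, ranks 188 and 156. H3K4me3 covered 1931 bp in 4 peaks and 2978 bp in 7. All 4 Low-Chir peaks were overlapped in Boost-Chir, and 3 short Boost-Chir peaks, of 201, 367 and 241 bp, had no Low-Chir counterpart. The top folds were close, 6.29 and 6.21, but at different summits, 63789415 and 63783238. The difference of 1047 bp was just past the limit of 1 kb. With −log10 q of at least 5 the lengths were 1212 and 2169 bp, with the top 50% of each list 1212 and 1393 bp, and with a window 5 kb narrower on each side 1319 and 2263 bp, all differences under 1 kb. With the same minimum of summit reads per depth in both lists they were 1212 and 2169 bp.

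SOX9 ran against the general widening of H3K4me3. In Low-Chir 5 peaks covered 8420 bp between 70111645 and 70121495, and 1.13% of the 15614 joined runs of that list were at least as long. In Boost-Chir 6 peaks covered 5292 bp, a length reached by 14.8% of 16002 runs. Among windows around loci with both marks, 3.58% were shorter in Boost-Chir by the limits used, against the 1.21% of all loci given above. Across the 6 alternatives to peak choice and window size the SOX9 ratio stayed between 0.557 and 0.656.

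The SOX9 difference lay both under H3K27me3 peaks, where H3K4me3 covered 3334 and 1881 bp, and outside them, where it covered 5086 and 3411 bp. Within the window, the last H3K27me3 peak ended at 70116146 in Low-Chir versus 70116323 in Boost-Chir. Left of the latter point H3K4me3 covered 4264 bp in Low-Chir versus 1953 bp in Boost-Chir, and right of it 4156 and 3339 bp. H3K27me3 on the left covered 4751 bp in Low-Chir versus 5671 bp in Boost-Chir, with 6 peaks in each and a top fold of 6.94 and 7.24. The highest H3K4me3 summit on the left had 25 reads (exact 95% Poisson interval 16.2 to 36.9) in Low-Chir versus 17 (9.90 to 27.2) in Boost-Chir. On the right these were 41 (29.4 to 55.6) and 46 (33.7 to 61.4). Reads above local background per unit of depth were 10.2 (6.24 to 15.6) and 5.25 (2.59 to 9.07) on the left, and 17.5 (12.3 to 24.1) and 15.2 (10.6 to 20.9) on the right, so the intervals overlapped on both sides. These intervals cover counting error only, and the highest of several summits is a selected value.

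At the highest SOX9 summit, 70117307 in Low-Chir versus 70118758 in Boost-Chir, the listed fold was 13.1 versus 7.33, while the reads were 41 and 46. The local background there was 2.21 reads in Low-Chir, equal to the genome-wide background of that library, and 5.41 reads in Boost-Chir, 2.02 times the genome-wide value. Over the H3K4me3 peaks of the window, local background had a median of 1.07 times genome-wide in Low-Chir (highest 1.41) versus 1.35 times in Boost-Chir (highest 2.02). Over all peaks of the lists the medians were 1.06 and 1.08. The part of this background in the shorter Boost-Chir length was not tested.

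SOX10, a factor of migrating crest cells and later glia, had no H3K4me3 peak in either list. Its H3K27me3 was shorter than at TFAP2A, TFAP2B, FOXD3 and SOX9, though 33.5% of all joined runs in Low-Chir and 42.0% in Boost-Chir were at least as long. In Low-Chir 4 peaks covered 2404 bp from 38377472, with a top fold of 5.94. In Boost-Chir 3 peaks covered 1390 bp from 38378119, with a top fold of 5.68. Over all H3K27me3 peaks the median fold was 4.29 and 4.196. The highest summits had 24 (15.4 to 35.7) and 22 (13.8 to 33.3) reads, which overlap widely. The length decreased by 1014 bp, just past the 1 kb limit. The difference was under that limit with −log10 q of at least 5 (1335 and 745 bp), with the top 50% of each list (1335 and 999 bp), and with the same minimum of summit reads per depth in both lists (1785 and 999 bp). No peak in a list means that none passed the authors' threshold at this depth, not that the mark is absent.

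SNAI2 was the member with the least Polycomb mark. H3K4me3 covered 1686 bp in 2 peaks in Low-Chir versus 3616 bp in 5 peaks in Boost-Chir. The main Low-Chir peak of 1474 bp, from 49833070, met 2 Boost-Chir peaks of 1555 and 930 bp, and the joined run extended on both sides, from 49831419 to 49835366 against 49832036 to 49834543. The top fold was 8.99 in Low-Chir versus 11.98 in Boost-Chir, and the highest summits had 29 (19.4 to 41.6) and 43 (31.1 to 57.9) reads, with overlapping intervals. H3K27me3 was listed in Low-Chir as 2 peaks of 258 and 346 bp, with 16 and 20 reads at the summit, beside a median of 20 over that list. Boost-Chir had none. The Low-Chir peaks were under 1 kb together, so this difference is inside the limits used for length. The H3K4me3 ratio was 2.14 to 2.26 across the 6 alternatives to peak choice and window size.

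**Figure D4:**
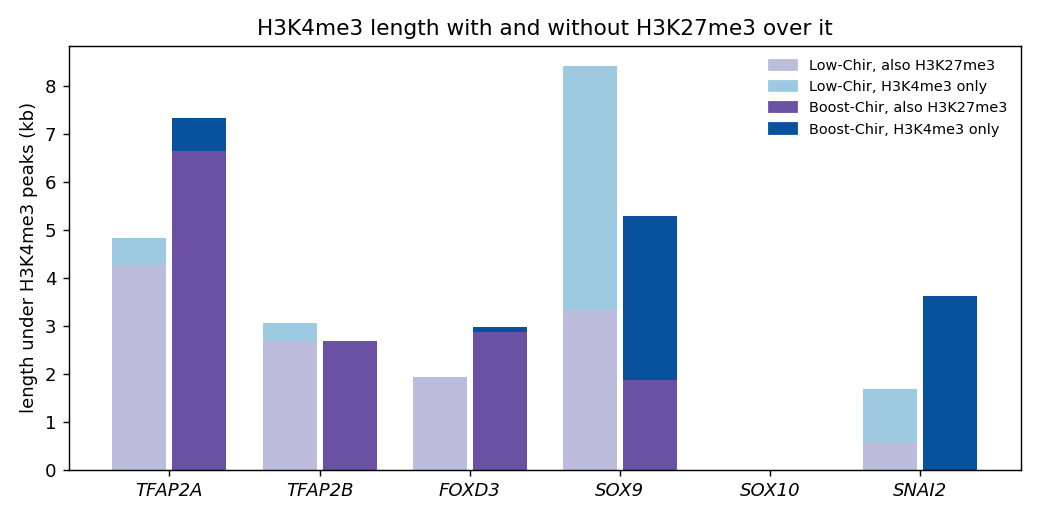
Length under H3K4me3 peaks in kb for each gene and condition (left bar Low-Chir, right bar Boost-Chir), split by whether an H3K27me3 peak of the same condition covers it. The bars of TFAP2A, TFAP2B and FOXD3 are mostly under H3K27me3, SOX9 is split, and SNAI2 has no such part in Boost-Chir.

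Both marks overlapped in 5 of the 6 windows in Low-Chir versus 4 in Boost-Chir, SNAI2 being the difference. Of the windows around all H3K4me3 loci, 21.1% and 20.4% held such an overlap, and of those around all H3K27me3 loci 41.9% and 40.3%. At TFAP2A, 88.2% of the H3K4me3 length lay under H3K27me3 peaks in Low-Chir versus 90.6% in Boost-Chir. The shares were 87.7% and 100% at TFAP2B and 98.8% and 96.4% at FOXD3. Over the whole lists they were 6.65% and 5.15%. At SOX9 the share was 39.6% in Low-Chir versus 35.5% in Boost-Chir, with 3334 and 1881 bp under both marks. At SNAI2 it was 34.8% in Low-Chir, from 586 bp. This rests on the 2 short H3K27me3 peaks of 258 and 346 bp. Of all Low-Chir H3K27me3 peaks, 56.9% were overlapped by a Boost-Chir peak. In Low-Chir, H3K27me3 covered 97.6% of the TFAP2A window, 78.9% of the TFAP2B window and 82.0% of the FOXD3 window. Most H3K4me3 placed anywhere in these windows would thus lie under it, and nothing is read from their shares. Peaks of both marks at one place do not show that they sit on the same chromosomes, since a culture can hold cells of either state.

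Single peaks recurred between the conditions. Of the 30 H3K27me3 peaks of Low-Chir in the windows, 24 were overlapped by a Boost-Chir peak, and of the 33 of Boost-Chir, 31 by a Low-Chir peak. Over all peaks of these lists the shares were 56.9% and 63.7%. Peak widths were not matched in this comparison. For H3K4me3, 18 of 23 Low-Chir peaks and 22 of 32 Boost-Chir peaks were overlapped, against 83.6% and 59.6% of all peaks.

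None of the 10 pairs of highest summits per window, 5 per mark, differed by 1.5-fold or more in reads above background per unit of depth. Among loci in both lists, 5.11% were higher and 2.96% lower in Boost-Chir by that limit for H3K4me3, and 1.2% and 5.85% for H3K27me3. These shares use the highest summit of each locus joined within 3 kb, whereas the window of a gene can hold several loci. The units are unlike, so the 0 of 10 is not read against these shares. In the small H3K4me3 peaks on the left of TFAP2B the highest summit was 8.38 in Low-Chir versus 5.31 in Boost-Chir. That difference is past the limit but not seen in the highest summit of the window. Among the 10 pairs by window, TFAP2B H3K4me3 came closest to the limit. It had 12.5 (8.11 to 18.3) in Low-Chir versus 8.38 (5.00 to 12.9) in Boost-Chir, a ratio of 0.669. For SNAI2 the ratio was 1.25, for TFAP2A 1.25, for FOXD3 1.15 and for SOX9 0.866, beside a median of 1.09 over all loci. The highest summits of a pair can belong to different peaks, as at TFAP2A and FOXD3. At the peak with the highest Low-Chir summit, the values were 9.44 and 6.81 at TFAP2A and 7.98 and 5.38 at FOXD3, lower in Boost-Chir. At the peak with the highest Boost-Chir summit they were 8.54 and 11.8 at TFAP2A and 4.02 and 9.20 at FOXD3, higher in Boost-Chir. The SOX9 summits left of the H3K27me3 edge, given above as 10.2 and 5.25, also differed by more than the highest summits of that window. In H3K27me3 the ratio was lowest at TFAP2A, 0.818, and between 0.935 and 1.03 at TFAP2B, FOXD3, SOX9 and SOX10, beside a median of 0.920. Within each pair the intervals overlapped. With the mean over the 3 highest H3K27me3 peaks of a window, the ratio was 1.45 at TFAP2B. The wide Low-Chir peak of TFAP2B counts once in this mean. At TFAP2A, FOXD3, SOX9 and SOX10 the ratio of these means lay between 0.811 and 1.02.

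**Figure D5:**
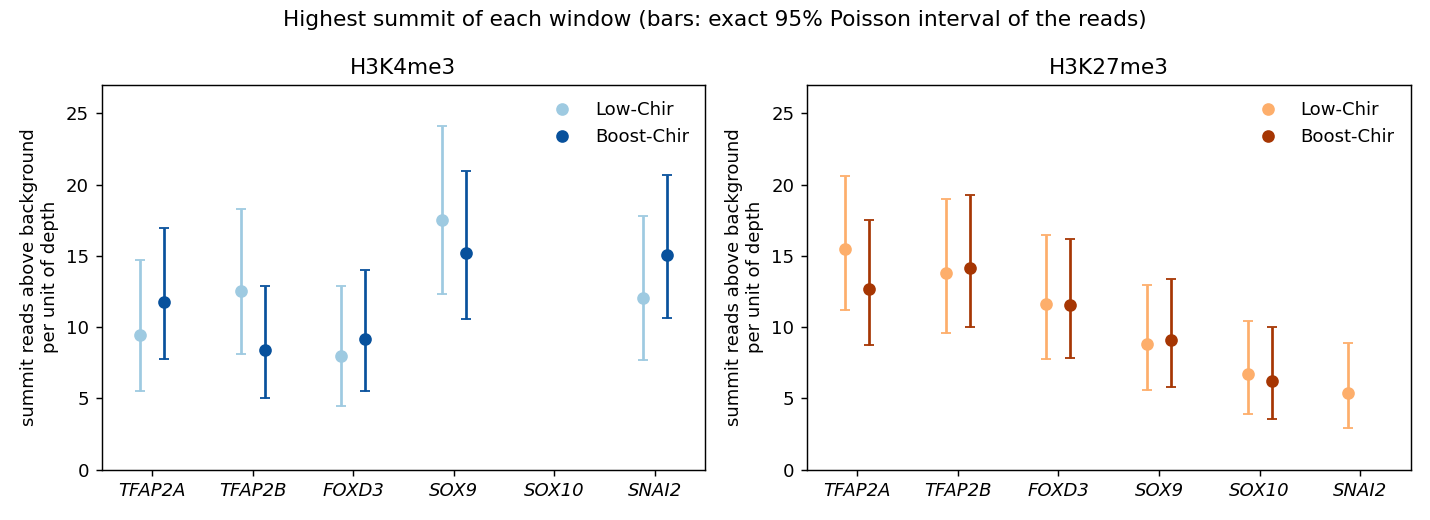
Highest summit of each window, as reads above local background per unit of depth, for H3K4me3 (left) and H3K27me3 (right), with exact 95% Poisson intervals of the reads. Within every pair the Low-Chir and Boost-Chir intervals overlap, and H3K27me3 falls from TFAP2A and TFAP2B toward SOX10 and SNAI2.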

How the data were processed

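The submitters' processing notes name BWA 0.7.12, cutadapt 1.6 and Picard, and the build hg19. Which program called the peaks, and at what threshold, is not given in the sources used here. The peak names in the deposited lists pair each antibody library with the input of the same condition. The 4 deposited lists give a fold enrichment (a ratio over local background), a −log10 p, a −log10 q, a summit and a score for each peak. The score was not used. The 2 inputs have no table of their own here and were not analysed.

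The members, windows and limits were chosen with earlier results of these data known. All 6 members are named, with the highest fold of each mark listed in each window. Joined runs are given for some windows and marks only. Other single peaks given were chosen after their values were seen. Covered length is the union of peaks clipped to the window. A peak counted as shared at 1 bp of overlap. Lengths were called different at 1.5-fold and 1 kb. Reads at summits and local backgrounds, in reads, were solved from the fold and the −log10 p, taking the fold as reads plus 1, divided by background plus 1, and the −log10 p as the upper tail of a Poisson distribution, with the authors' scaling undone. This matched 100% of peaks within 0.005. Depth is the genome-wide background, 2.21 reads (Low-Chir) and 2.67 (Boost-Chir) for H3K4me3 and 3.12 and 3.03 for H3K27me3. The depth ratio assumes equal fragment lengths. Scripts were tested on simulated data. Python 3.11.15, numpy 2.4.6, scipy 1.17.1 and matplotlib 3.10.9 were used. Alternatives covered peak strength, peak number, window size, overlap rule and the choice of background loci.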

Additional observations from a re-analysis of the deposited data

How the results depend on the processing

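No paired analysis was possible because there was 1 library for every antibody in either condition. The alternative with the same minimum of summit reads per depth in both lists was chosen after seeing the data. None of the 76 alternative values for single genes moved by over 1.5 times or reversed a called direction, while TFAP2B H3K4me3, not called, ran from 0.878 to 1.25. The number of windows with shorter H3K27me3 in Boost-Chir, 1 (SOX10), was 0 with −log10 q of at least 5, 0 with the top 50% of each list and 0 with the same minimum of summit reads. The number with longer H3K4me3, 3, was 2 under these settings and with windows 5 kb narrower on each side, where FOXD3 fell short of 1 kb. Around loci with both marks, 12.1% of H3K4me3 windows were longer and 3.58% shorter in Boost-Chir, against 18.5% and 1.21% around all loci. The cause was not tested. Depth limits the summit values: the highest summits held 20 to 52 reads, and the counting intervals of all 10 pairs overlapped.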

Other observations

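In the 100 kb to the left of TFAP2B, H3K27me3 covered another 21.2 kb in Low-Chir versus 21.0 kb in Boost-Chir, with 0 and 0.260 kb of H3K4me3. To the right of TFAP2B neither mark was listed in either condition. For TFAP2A, H3K27me3 covered another 6.27 and 6.04 kb on the left, and 0.307 and 0.222 kb on the right. FOXD3 had no H3K27me3 in the 100 kb on either side, while H3K4me3 on its right covered 1.84 and 1.39 kb. SOX9 was flanked by little of either mark, with H3K27me3 of 0 and 0.843 kb on the right. On its left H3K4me3 covered 0.319 kb in Low-Chir versus 1.602 kb in Boost-Chir, the opposite direction to the window itself, and on its right 0.242 and 0.767 kb. SOX10, without an H3K4me3 peak of its own, had 5.23 and 6.67 kb of H3K4me3 on the left and 1.87 and 2.32 kb on the right. For SNAI2, H3K27me3 on the left covered 1.21 kb in Low-Chir versus 1.39 kb in Boost-Chir. Its own window had 0.604 kb in Low-Chir and no listed peak in Boost-Chir.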
